A study of Homo sapiens with 24 samples.

Results

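The interferon-stimulated genes examined here are a set of 47 antiviral and immune genes, chosen by gene name, of which 43 were listed in all 3 tables of counts and 4 (IFI27, IFI44L, RSAD2 and TRIM22) were not. They were measured by RNA-seq in Panc-1 cells, an established human pancreatic ductal carcinoma line, in which 13506 genes were listed in all 3 tables. The cells carried the doxycycline (Dox)-inducible Tet-One plasmid, either empty (Tet-One), with the rat MIST1 open reading frame (Tet-MIST1) or with the mouse PTF1a open reading frame (Tet-PTF1a), both myc-tagged. MIST1 and PTF1a are bHLH transcription factors of the pancreatic acinar cell. Every line had 4 Control libraries, grown without Dox, and 4 Dox libraries, from cells kept for 72 h with 1 µg/ml of the drug, which makes 24. All cells had been selected in puromycin and were grown in tetracycline-depleted serum. The passage number was 33 for Tet-MIST1 and 32 for the other lines. Individual clones had been screened for induction, so a difference between lines cannot be told apart from one between clones or passages. The same holds for any separate sequencing or processing of the lines.

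Interferon-stimulated genes are the output of innate antiviral signalling. Foreign or misplaced nucleic acid is sensed by proteins such as RIG-I (gene DDX58) and MDA5 (IFIH1), which leads to the secretion of interferons. Interferons bind cell surface receptors, whose JAK kinases phosphorylate STAT proteins, and these join IRF9 to form ISGF3, which binds the interferon-stimulated response element (ISRE) in target promoters. Interferon gamma acts on the gamma-activated site (GAS). Many of the sensors and transcription factors are themselves interferon-stimulated, and the set is often active at a low level in tumor cell lines.

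The sequences of 5 promoters are shown because these members passed the test in the most comparisons among those with a promoter in the RefSeq table used (GRCh38.p14). IFIT1, IFITM1 and IFITM3 were called in 7 of the 9 comparisons made, and OAS1 and IRF1 in 6. Each sequence is the 250 bases before the annotated start, read 5′ to 3′ on the strand of the gene. In the first 3 sequences, capitals mark the core letters of the ISRE, GAAANNGAA on either strand, and in the last 2 they mark the letters of the GAS, TTCNNNGAA, which reads the same on both strands. The IFIT1 stretch lies at chr10:89392373-89392622 on the plus strand, IFITM1 at chr11:313790-314039 (plus), IFITM3 at chr11:320861-321110 (minus), OAS1 at chr12:112906712-112906961 (plus) and IRF1 at chr5:132490774-132491023 (minus).
IFIT1: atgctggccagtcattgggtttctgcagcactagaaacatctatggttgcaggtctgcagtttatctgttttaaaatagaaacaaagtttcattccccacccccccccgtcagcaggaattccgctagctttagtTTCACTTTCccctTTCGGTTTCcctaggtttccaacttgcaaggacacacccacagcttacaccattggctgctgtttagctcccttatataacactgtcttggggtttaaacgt
IFITM1: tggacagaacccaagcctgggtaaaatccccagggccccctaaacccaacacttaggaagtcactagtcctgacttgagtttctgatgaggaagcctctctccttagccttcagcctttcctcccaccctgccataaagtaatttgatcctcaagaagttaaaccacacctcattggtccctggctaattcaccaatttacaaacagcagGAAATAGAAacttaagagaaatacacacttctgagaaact
IFITM3: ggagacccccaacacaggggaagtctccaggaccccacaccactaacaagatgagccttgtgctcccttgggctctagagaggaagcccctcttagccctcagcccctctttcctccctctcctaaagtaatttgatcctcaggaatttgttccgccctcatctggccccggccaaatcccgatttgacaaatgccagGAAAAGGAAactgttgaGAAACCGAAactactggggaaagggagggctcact
OAS1: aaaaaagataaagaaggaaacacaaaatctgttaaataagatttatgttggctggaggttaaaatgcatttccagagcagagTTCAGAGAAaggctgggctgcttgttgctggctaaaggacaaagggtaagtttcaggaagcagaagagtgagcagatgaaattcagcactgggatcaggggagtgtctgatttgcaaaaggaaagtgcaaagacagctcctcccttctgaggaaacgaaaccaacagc
IRF1: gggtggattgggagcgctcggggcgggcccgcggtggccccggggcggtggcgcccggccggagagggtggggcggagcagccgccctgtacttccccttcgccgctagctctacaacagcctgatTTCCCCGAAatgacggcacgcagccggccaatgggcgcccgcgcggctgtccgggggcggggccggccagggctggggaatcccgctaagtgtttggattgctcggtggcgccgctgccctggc

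IFIT1 held 2 matches to the ISRE core, the nearer beginning 102 bases before the start, and IFITM3 held 2, the nearer at 35 bases. In its printed stretch IFITM1 held 1 match, 40 bases before the start, and also 1 GAS match that did not overlap it. A second ISRE core match in IFITM1 began 6 bases before the start and ran past the end of the printed stretch. This second match did overlap the GAS match, whose closing letters gaa are its opening letters. OAS1 and IRF1 each held a GAS match, 168 and 124 bases before the start, and no match to the ISRE core letters. Near its end the OAS1 stretch reads gaaacgaaac, with 1 base between the gaaa repeats where the letters used require 2. Of the 47 members, 38 had a promoter in the table, and 27 of these 38 had at least 1 ISRE core in a window of 300 bases from 250 before to 50 after a start. Counted by promoter, 33 of the 51 promoters of members (64.7%) held an ISRE core, beside 8.11% of all 35116 promoters, and 14 (27.5%) held a GAS, beside 7.66%. Members without an entry were DHX58, OAS2, OASL, IRF7, USP18, IFIT2, IFITM2, MX2 and TRIM22. A match says only that the letters are present, and the lack of a match does not show that no element is there.

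In hg19, the build of the deposited tables, several members are neighbours. IFIT2 (chr10:91061706-91069033), IFIT3 (chr10:91087576-91100725), IFIT1 (chr10:91152303-91166244) and IFIT5 (chr10:91174325-91180759) lie side by side on the plus strand. IFITM2, IFITM1 and IFITM3 lie within chr11:308107-320914, and OAS1, OAS3 and OAS2 within chr12:113344739-113449528. The IFITM genes are close paralogs, and the use of multiply mapped reads in the counting was not stated, so that reads could be split among them. DTX3L and PARP9 share 185 exonic bases on opposite strands, and whether strand was used in counting was not stated.

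Library totals were 33402628 to 42510942 counts in Tet-MIST1, 35863825 to 41648040 in Tet-One and 17210989 to 43018494 in Tet-PTF1a. Of the human genes for the induced factors, PTF1A had 0 to 2 counts in Tet-PTF1a Control and 53 to 168 in Dox libraries, and was not listed in the other lines, while BHLHA15 (MIST1) was listed only in Tet-PTF1a, so the rat transgene could not be checked in the Tet-MIST1 table. Both transgenes are rodent, so counts at the human loci are not a measure of their level. Tet-One Dox replicate 1 stood apart from its group (SD of its log2 differences 0.583, 0.097 to 0.240 in the other 23 libraries), and the counts that rest on it are given with and without it. Tet-MIST1 Dox replicate 1 differed to a lesser degree. The chi-square per degree of freedom between its counts and those of the other Tet-MIST1 Dox libraries was 27.8 to 46.0. Pairs of these other libraries gave 5.39 to 7.83. All 8 epithelial and ductal markers were listed. Of the markers of other cell types, 3 of 8 leukocyte genes (CD14, CD68, ITGAM), 2 of 5 fibroblast genes (COL1A1, PDGFRB) and 0 of 3 endothelial genes were listed, and PTPRC, CD3E and PECAM1 were not.

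The first comparison asked how the members differed between the lines before any Dox was given. Most were higher in both Tet-MIST1 and Tet-PTF1a than in the empty-plasmid line Tet-One. In uninduced Tet-MIST1, 34 of 43 members were higher than in uninduced Tet-One and 6 lower, with a median log2 difference of 1.18, while 40.3% of all 13504 genes tested were higher and 41.4% lower (edgeR quasi-likelihood test, Benjamini-Hochberg adjusted p under 0.05, here and below). In uninduced Tet-PTF1a, 33 were higher and 5 lower, with a median of 1.30, beside 40.2% higher and 39.9% lower of all genes. Library size scaling left 33 higher and 1 lower. The median of all genes lay between -0.03 and 0.00 in each of the 9 comparisons. Both comparisons use the same 4 Tet-One Control libraries. The members that did not pass were EIF2AK2, PARP12 and DHX58 in Tet-MIST1 and ISG15, PARP12, TRIM21, STAT2 and DHX58 in Tet-PTF1a, at -0.18 to 0.09. By role, 7 of 9 RNA sensors and OAS genes, 5 of 5 genes of ISG15 conjugation and 4 of 4 IFIT genes were higher in Tet-MIST1, and 8, 4 and 4 of these were higher in Tet-PTF1a. Called members whose libraries overlapped between groups were IRF9 in Tet-MIST1 and IRF7, IFI35 and BST2 in Tet-PTF1a. In Tet-MIST1, 33 of 34 members called higher and 6 of 6 called lower did not overlap, beside 90.2% and 91.7% of all called genes. In Tet-PTF1a, 33 of 33 and 2 of 5 did not, beside 93.3% and 89%. Fewer expressing cells and less RNA per cell cannot be told apart in these bulk libraries. Summed over the 43 members, CPM (counts scaled to a common library size with TMM factors over the 24 libraries) were 616.9 to 654.5 per Tet-One Control library, 1222.4 to 1263.0 in Tet-MIST1 and 1193.5 to 1228.7 in Tet-PTF1a. The Tet-One range lay below both others, and the Tet-MIST1 and Tet-PTF1a ranges overlapped. Without IFITM3 they did not overlap, at 850.0 to 877.7 CPM in Tet-MIST1 and 972.0 to 1002.6 CPM in Tet-PTF1a, above 495.7 to 539.2 CPM in Tet-One. Marker sums also differed between the uninduced lines, with the 8 epithelial and ductal markers at 5227.32 to 6117.28 CPM in Tet-One, 1792.72 to 1924.68 in Tet-MIST1 and 3393.5 to 3559.77 in Tet-PTF1a, the 3 leukocyte markers (nearly all CD68) at 104.91 to 115.86, 253.1 to 258.95 and 61.97 to 67.47 CPM, and the 2 fibroblast markers at 113.6 to 139.26, 63.36 to 68.83 and 144.99 to 152.15 CPM. Their part in the baseline differences was not tested.

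**Figure D1:**
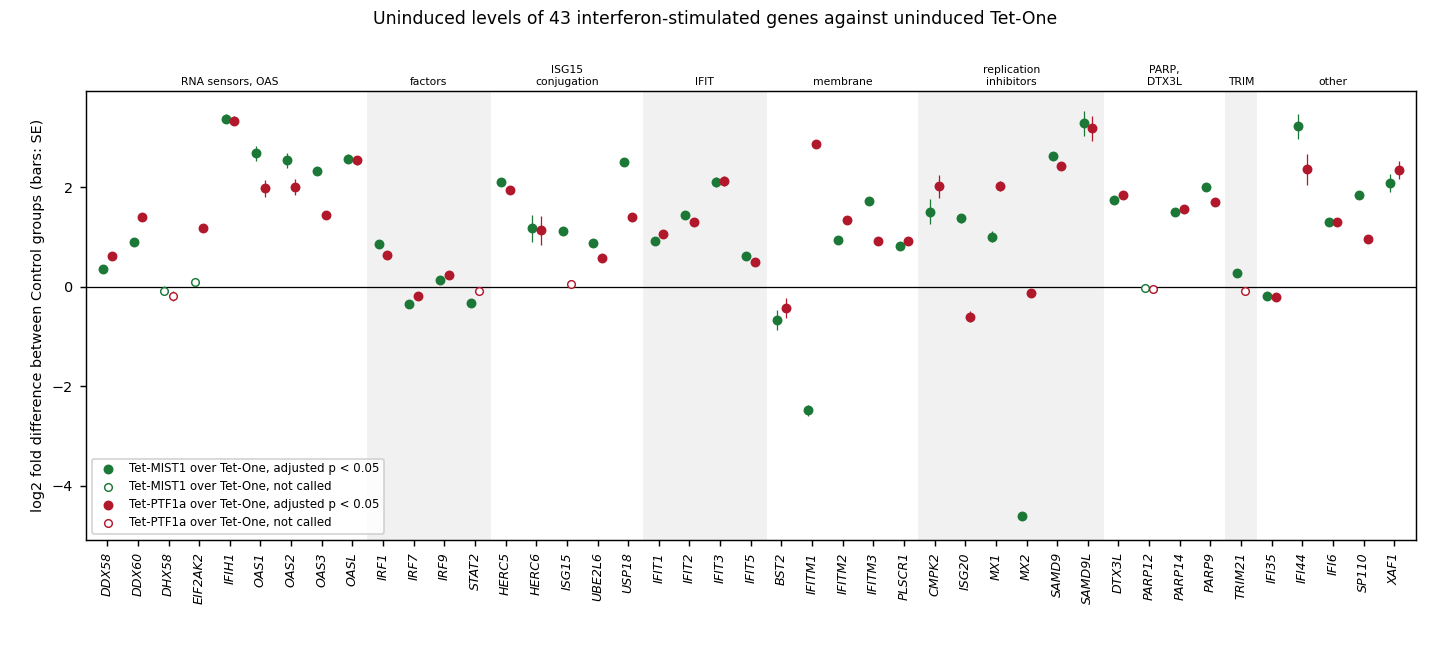
Log2 fold difference (y axis, bars SE) of each of the 43 members (x axis, grouped by role) between the 4 Control libraries of Tet-MIST1 (green) or Tet-PTF1a (red) and the 4 Tet-One Control libraries. Filled points passed an adjusted p of 0.05. Most points lie above 0 in both lines, and MX2 (-4.62) and IFITM1 (-2.48) lie far below 0 in Tet-MIST1.

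Cytosolic RNA sensors and OAS enzymes, which make 2-5A to activate RNase L, were among the members that differed most. IFIH1 was measured at 1.75, 1.31, 1.69 and 1.23 CPM in Tet-One Control, at 15.7, 16.7, 16.3 and 15.2 CPM in Tet-MIST1 Control and at 15.8, 15.7, 14.6 and 16.7 CPM in Tet-PTF1a Control. Every Control library of Tet-MIST1 and of Tet-PTF1a was above every Tet-One Control library. The log2 differences were 3.38 ± 0.09 (SE, adjusted p = 3.1e-21) in Tet-MIST1 and 3.34 ± 0.09 (3e-20) in Tet-PTF1a. OASL, an OAS-like protein that enhances RIG-I signalling, was 2.27, 1.90, 2.66 and 1.95 CPM in Tet-One Control, 12.01, 13.5, 14.7 and 13.0 CPM in Tet-MIST1 Control and 12.8, 13.4, 13.8 and 12.8 CPM in Tet-PTF1a Control. Its log2 differences from Tet-One were 2.58 ± 0.09 and 2.54 ± 0.09. OAS1 differed by 2.68 ± 0.15 in Tet-MIST1, from 0.372 to 0.507 CPM to 2.80 to 3.27 CPM, and OAS2 by 2.54 ± 0.15. EIF2AK2, the RNA-activated kinase PKR, was 45.1 to 49.7 CPM in Tet-One Control and 45.6 to 53.0 CPM in Tet-MIST1 Control, ranges that overlapped, and 104 to 111 CPM in Tet-PTF1a Control, 1.09 ± 0.04 above Tet-MIST1 (adjusted p = 2.4e-17).

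Effectors that block viral replication showed the same order, with exceptions. SAMD9, a restriction factor of poxviruses, was 2.64, 2.62, 2.78 and 2.13 CPM in Tet-One Control, 14.2, 16.7, 16.99 and 15.9 CPM in Tet-MIST1 Control and 14.1, 13.5, 14.02 and 14.4 CPM in Tet-PTF1a Control. The groups did not overlap Tet-One, and the log2 differences were 2.63 ± 0.08 and 2.43 ± 0.08. SAMD9L and IFI44 differed by 3.28 ± 0.24 and 3.23 ± 0.25 in Tet-MIST1 and by 3.19 ± 0.26 and 2.36 ± 0.31 in Tet-PTF1a, but each had only 2 to 6 counts per Tet-One Control library. USP18, which removes ISG15 from proteins and restrains the receptor, was 2.33 to 2.58 CPM in Tet-One Control, 13.8 to 14.6 CPM in Tet-MIST1 Control (2.51 ± 0.07) and 5.88 to 7.28 CPM in Tet-PTF1a Control, 1.10 ± 0.07 below Tet-MIST1 on the log2 scale. IFIT3, which partners IFIT1 in binding viral RNA, and XAF1, a proapoptotic protein, were 2.13 ± 0.10 and 2.35 ± 0.18 above Tet-One in Tet-PTF1a.

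MX2 and IFITM1 differed most between Tet-MIST1 and Tet-PTF1a. MX2, a dynamin-like GTPase active against HIV-1, was 60.6, 60.01, 59.3 and 57.3 CPM in Tet-One Control, 2.25, 2.47, 2.37 and 2.28 CPM in Tet-MIST1 Control and 55.0, 53.4, 53.4 and 56.3 CPM in Tet-PTF1a Control. Tet-MIST1 lay below the other lines with no overlap, by 4.62 ± 0.05 against Tet-One (adjusted p = 1.2e-27), whereas its neighbour MX1, which blocks influenza virus, was 3.61 to 4.67 CPM there and 1.76 to 2.26 CPM in Tet-One. IFITM1, a membrane protein that restricts virus entry, was 10.0, 9.45, 9.41 and 7.95 CPM in Tet-One Control, 1.11, 1.61, 1.60 and 2.09 CPM in Tet-MIST1 Control and 67.3, 67.3, 66.03 and 72.4 CPM in Tet-PTF1a Control. The 3 lines did not overlap, and the log2 difference between Tet-PTF1a and Tet-MIST1 was 5.36 ± 0.09 (adjusted p = 2.3e-22). Between these 2 lines, 14 members were higher in Tet-PTF1a and 15 lower (42.3% and 42.8% of all genes), with a median log2 difference of -0.04. With upper quartile scaling the split was 9 higher and 17 lower. ISG20, an RNA exonuclease, was 1.97 ± 0.09 lower in Tet-PTF1a than in Tet-MIST1, ISG15, the ubiquitin-like modifier, 1.06 ± 0.07 lower and OAS3 0.88 ± 0.04 lower.

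Members that were higher in neither Tet-MIST1 nor Tet-PTF1a included IRF7 and STAT2, 2 of the 4 transcription factors. IRF7, the regulator of interferon alpha genes, was lower than in Tet-One by 0.36 ± 0.06 in Tet-MIST1 and 0.18 ± 0.06 in Tet-PTF1a, and STAT2 was lower by 0.33 ± 0.05 in Tet-MIST1. The other factors were higher in both lines. IRF1 was 0.86 ± 0.06 and 0.64 ± 0.06 higher in the 2 lines, and IRF9 was also called higher in both, with overlapping libraries in Tet-MIST1. BST2 (tetherin) and IFI35 were lower in both comparisons, BST2 by 0.67 ± 0.19 and 0.42 ± 0.20 and IFI35 by 0.19 ± 0.06 and 0.20 ± 0.06. In Tet-PTF1a the IRF7, BST2 and IFI35 calls were lost with library size scaling and with GC content and exon length trends removed, and the sign of each turned under 1 alternative. Per kilobase of exon, the most abundant member in each uninduced line was IFITM3, at 575 ± 19.2 RPKM (SD, n = 4) in Tet-MIST1, 334 ± 9.41 in Tet-PTF1a and 174 ± 11.3 in Tet-One. The next was IFITM2 in Tet-One (32.5 ± 0.772) and in Tet-MIST1 (62.3 ± 1.23), and IFITM1 in Tet-PTF1a (95.2 ± 3.92), and the first 2 ranks of each line lay apart by more than the spread between libraries.

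The effect of Dox alone was measured in Tet-One. None of the 37 members tested passed (0% of 13428 genes higher and 0% lower by edgeR). None had an unadjusted p under 0.05, beside 401 of all genes, and DESeq2 called 0 members. Changes ran from -0.54 (SAMD9) to 0.48 (ISG15), with a median of -0.05, and the other 6 listed members did not pass the filter on low counts. Without Dox replicate 1 the range was -0.35 (SAMD9) to 0.16 (OAS3), with ISG15 at 0.14. Also without it, 6 members had an unadjusted p under 0.05 and again 0 passed the adjusted test. That library was high for several members, with ISG15 at 34.8 CPM beside 15.1 to 17.8 CPM in the other 3 Dox libraries and IFI6 at 10.8 CPM beside 4.64 to 5.13 CPM.

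In Tet-MIST1, Dox was followed by a rise of 15 of 43 members (median log2 change 0.15), while 11.9% of 13623 genes rose and 8.77% fell. In all 15 every Dox library was above every Control library, as in 92% of all genes called higher (11% of genes tested in the shared table were called and apart in this direction, 8.03% in the other). No member was called lower, but EIF2AK2 (-0.24) and DDX60 (-0.21) were when Dox replicate 2 was left out. The changes were small, at most 0.75 on the log2 scale. By role, 4 of 5 membrane proteins, 2 of 4 IFIT genes, 2 of 5 genes of ISG15 conjugation, 2 of 4 transcription factors and 1 of 9 RNA sensors and OAS genes rose. Summed member CPM was 1222.4 to 1263.0 in Control and 1375.9 to 1504.3 in Dox libraries. Without IFITM3, which gave 30.0 to 36.7% of that sum, it was 850.0 to 877.7 and 882.7 to 1044.3 CPM, still without overlap.

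**Figure D2:**
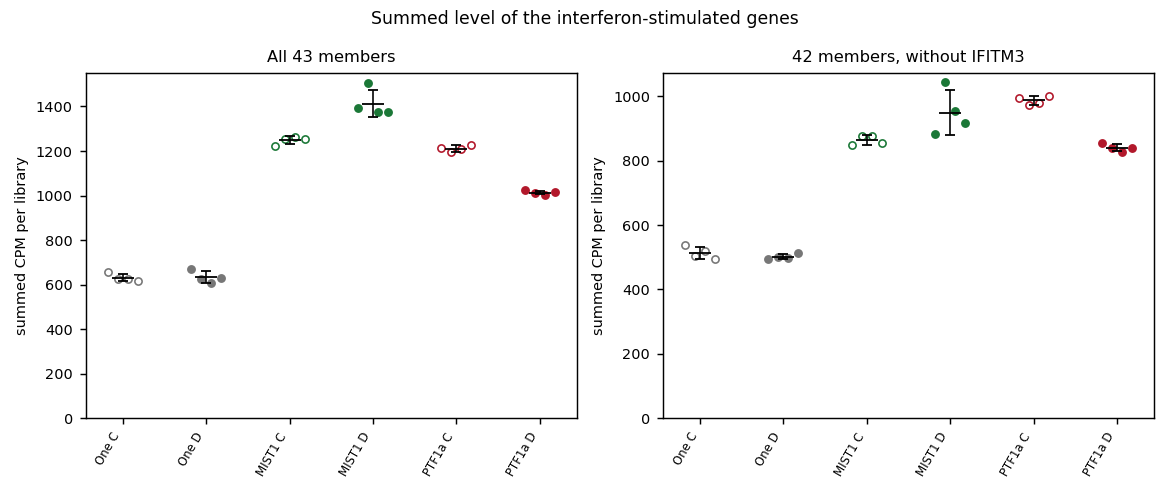
Summed CPM per library (y axis) of all 43 members (left) and of 42 members without IFITM3 (right) in the 6 groups (C, Control, open points; D, Dox, filled points; bars, mean and SD, n = 4). Tet-One stays near its Control level, Tet-MIST1 Dox lies above its Control and Tet-PTF1a Dox below it in both panels.

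IFI6, an endoplasmic reticulum and mitochondrial protein with antiviral activity, had the largest rise. It was 11.3, 12.3, 12.2 and 12.8 CPM in Tet-MIST1 Control and 19.9, 24.1, 18.9 and 19.3 CPM in Dox libraries (0.75 ± 0.08, 1.68-fold, adjusted p = 9.4e-05). HERC5, the ligase that attaches ISG15 to new proteins, was 13.8, 15.7, 15.5 and 15.8 CPM in Control and 25.3, 24.2, 24.7 and 21.9 CPM in Dox libraries (0.66 ± 0.06, adjusted p = 3.7e-05). Both groups were clear of each other for these genes. ISG15 itself was 30.9, 31.2, 32.9 and 36.5 CPM in Control and 53.0, 43.4, 39.4 and 41.9 CPM in Dox libraries (0.43 ± 0.09, adjusted p = 0.0058). IRF7 was 12.5, 11.4, 12.5 and 12.7 CPM in Control and 19.4, 18.5, 16.1 and 18.1 CPM in Dox libraries (0.55 ± 0.07, adjusted p = 0.00025). The IRF7 Control values of this line lay below the Tet-One Control range of 13.97 to 16.8 CPM, and 3 of its 4 Dox values lay above it.

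The IFITM proteins and IFIT1, an RNA cap-binding inhibitor of translation, rose as well. IFITM1 went from 1.11 to 2.09 CPM in Control to 2.25 to 2.98 CPM in Dox libraries (0.66 ± 0.17, adjusted p = 0.016), a low level in this line. IFITM2 was 44.2, 45.6, 46.3 and 45.8 CPM in Control and 67.6, 63.5, 57.8 and 62.0 CPM in Dox libraries (0.46 ± 0.05, adjusted p = 0.00015). IFITM3 rose by 0.26 ± 0.06 (adjusted p = 0.0084). For all 3 the Control and Dox ranges were apart. IFIT1 was 23.1, 27.7, 24.5 and 25.6 CPM in Control and 32.1, 39.3, 34.8 and 29.8 CPM in Dox libraries (0.43 ± 0.08, adjusted p = 0.0049). BST2 rose by 0.56 ± 0.18 (adjusted p = 0.034) on 17 to 36 counts per library, and this call was lost with DESeq2 and without any 1 of 6 of the 8 libraries. The other called members were ISG20 (0.38), SP110 (0.32), IFIT5 (0.24), IRF9 (0.22), IFIH1 (0.22) and PARP12 (0.17), of which IRF9, IFIH1 and PARP12 lost the call when any 1 of the 4 Control libraries was left out. Some members with large baseline differences did not pass, namely OAS1 (0.11 ± 0.15), OASL (0.15 ± 0.16), SAMD9L (-0.19 ± 0.13) and IFI44 (0.03 ± 0.12). The 28 members not called ranged from -0.19 to 0.33 (CMPK2).

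**Figure D3:**
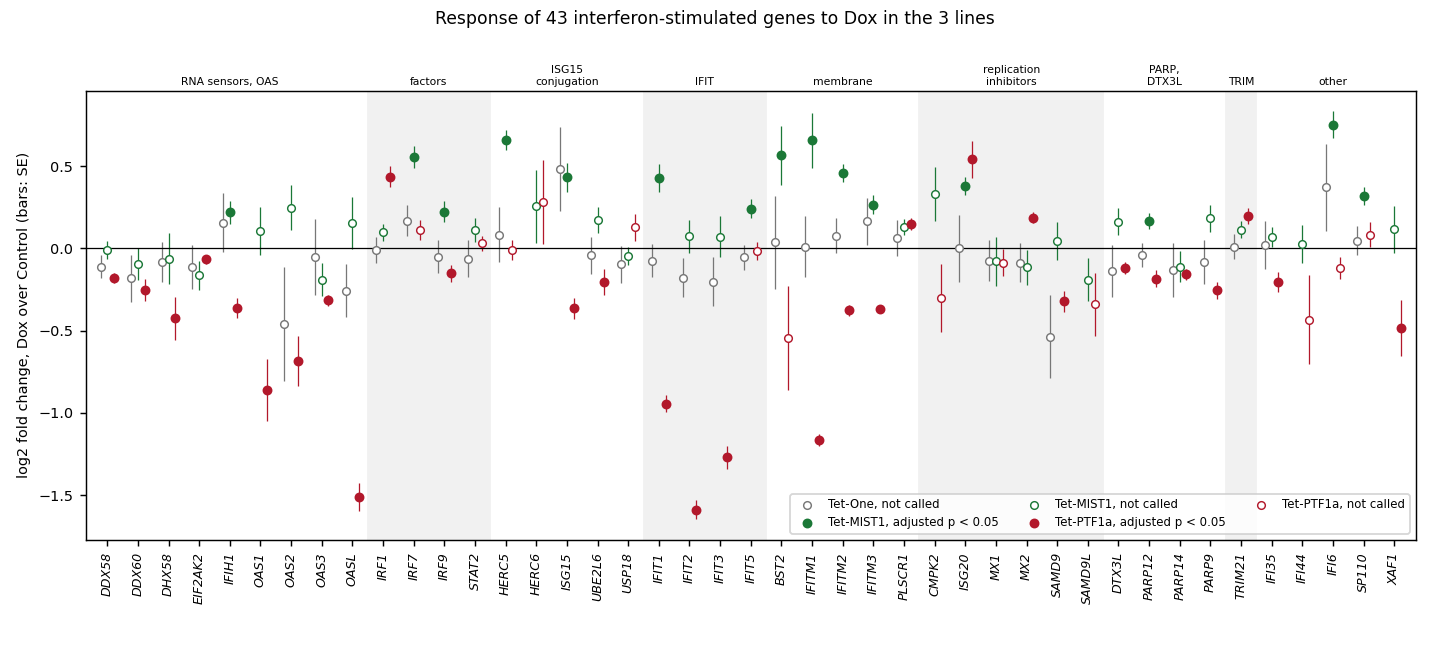
Log2 fold change with Dox (y axis, bars SE) of the members (x axis, grouped by role) in Tet-One (grey, 37 tested), Tet-MIST1 (green, 43) and Tet-PTF1a (red, 43). Filled points passed an adjusted p of 0.05, open points did not, and no Tet-One point is filled. The lowest red points are IFIT2 (-1.59), OASL (-1.51), IFIT3 (-1.27) and IFITM1 (-1.16), and the highest green points are IFI6 (0.75), HERC5 (0.66) and IFITM1 (0.66).

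In Tet-PTF1a, 25 of 43 members fell after Dox and 5 rose (median log2 change -0.21), while 24.4% of 14053 genes fell and 23.8% rose. With library size scaling, 61.9% of all called genes were higher in place of 49.4%, and the members split into 6 higher and 21 lower. All 9 RNA sensors and OAS genes fell, as did 3 of 4 IFIT genes, 4 of 4 PARP and DTX3L genes and 3 of 5 membrane proteins, while 1 of 4 transcription factors and 2 of 6 replication inhibitors rose. Summed member CPM was 1193.5 to 1228.7 in Control and 1004.4 to 1024.2 in Dox libraries. Markers of cell types moved in the same libraries in both directions. Of the 8 epithelial and ductal markers 3 rose (SOX9, CDH1, KRT7) and 5 fell, and their summed CPM, mostly KRT8 and KRT18, was 3393.5 to 3559.77 in Control and 1720.36 to 1772.74 in Dox libraries. Of the 3 listed leukocyte markers CD68 and CD14 fell and ITGAM rose, and their sum, nearly all CD68, was 61.97 to 67.47 and then 30.68 to 35.54 CPM. Of the 2 listed fibroblast markers COL1A1 fell and PDGFRB was not called, with sums of 144.99 to 152.15 and 62.03 to 64.21 CPM. Their part in the result was not tested.

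Of the IFIT genes, which bind viral RNA and hold back translation, 3 of 4 fell, and IFIT2 had the largest fall of any member. IFIT2 was 27.6, 27.4, 26.9 and 27.5 CPM in Tet-PTF1a Control and 8.12, 8.84, 9.85 and 9.20 CPM in Dox libraries (-1.59 ± 0.06, 0.333 of the Control level, adjusted p = 7.3e-29). IFIT3 was 17.3, 16.4, 18.5 and 18.7 CPM in Control and 5.95, 7.56, 7.25 and 8.01 CPM in Dox libraries (-1.27 ± 0.07, adjusted p = 3.3e-21). IFIT1, whose promoter with 2 ISRE cores is printed above, was 29.1, 27.6, 27.5 and 28.1 CPM in Control and 15.3, 14.5, 13.7 and 14.8 CPM in Dox libraries (-0.94 ± 0.05, adjusted p = 9.8e-22). The groups were far apart for all 3. Their neighbour IFIT5 was 16.6 to 17.95 CPM in Control and 15.9 to 17.5 CPM in Dox libraries (-0.02 ± 0.06, not called). The Dox levels of IFIT1 and IFIT2 lay near those of Tet-One Control, 12.5 to 14.2 and 8.92 to 12.9 CPM. IFIT3 stayed higher with Dox, at 5.95 to 8.01 CPM beside a mean of 3.99 CPM in Tet-One Control. OASL and IFITM1, given below, also stayed above the Tet-One Control libraries.

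**Figure D4:**
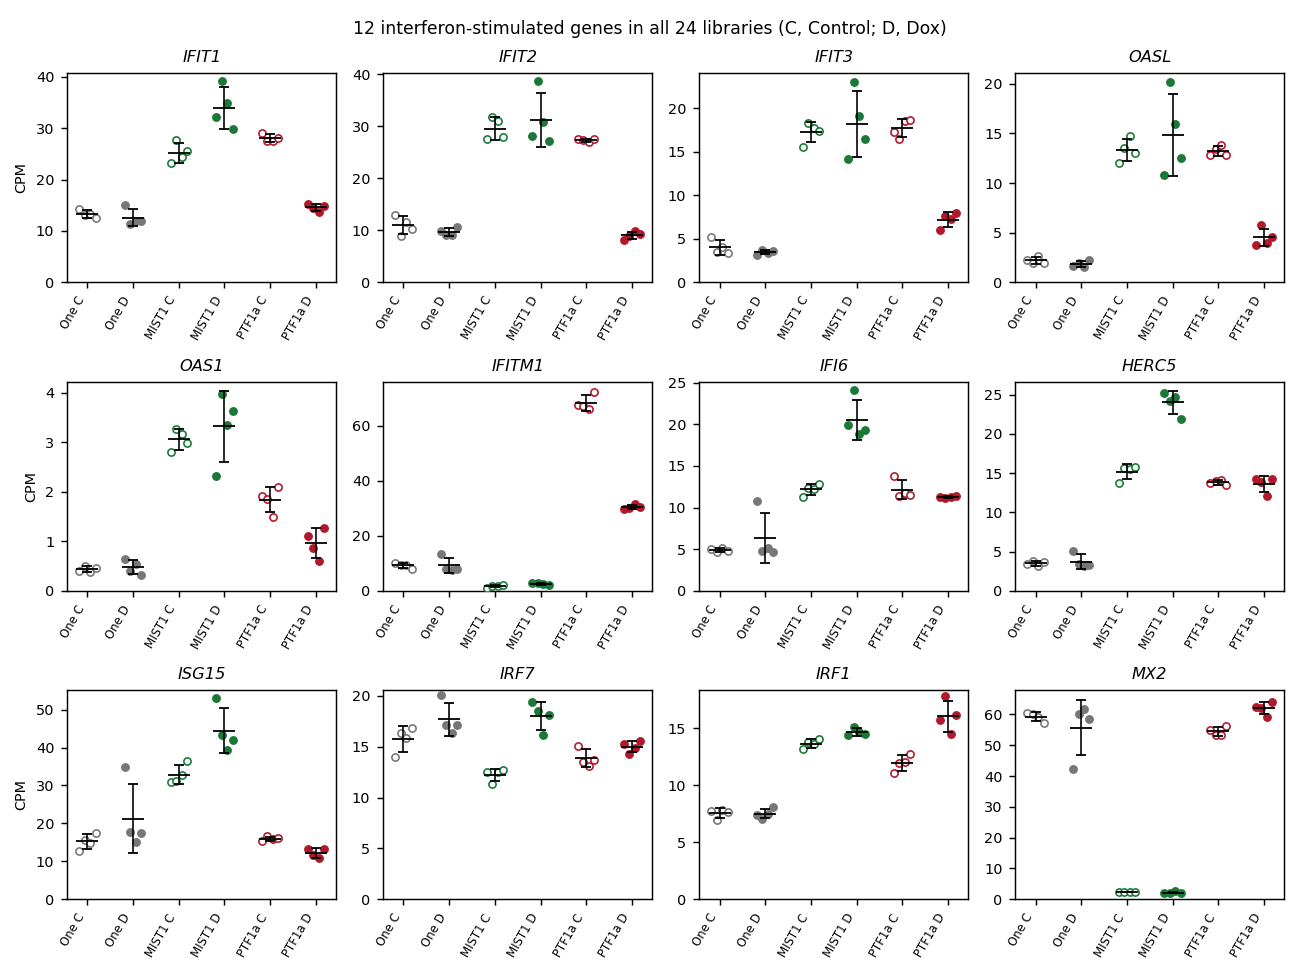
CPM (y axis, from 0) of 12 members in each of the 24 libraries (points; C, Control, open; D, Dox, filled; bars, mean and SD, n = 4). IFIT1, IFIT2, IFIT3, OASL, OAS1 and IFITM1 are lower with Dox in Tet-PTF1a, IFI6, HERC5, ISG15 and IRF7 are higher with Dox in Tet-MIST1, IRF1 is higher with Dox in Tet-PTF1a, and MX2 is low in all Tet-MIST1 libraries.

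Among the sensors and enzymes, OASL was 12.8, 13.4, 13.8 and 12.8 CPM in Tet-PTF1a Control and 3.78, 5.72, 3.95 and 4.58 CPM in Dox libraries (-1.51 ± 0.09, adjusted p = 1e-20). OAS1 was 1.91, 1.85, 1.49 and 2.10 CPM in Control and 1.11, 0.870, 0.600 and 1.27 CPM in Dox libraries (-0.86 ± 0.19, adjusted p = 8.3e-05). OAS2 was 2.74, 2.67, 3.17 and 2.86 CPM in Control and 1.56, 2.20, 2.10 and 1.30 CPM in Dox libraries (-0.68 ± 0.15, adjusted p = 0.00011). None of the 3 overlapped between Control and Dox. OAS3 fell by 0.32 ± 0.04, IFIH1 by 0.36 ± 0.06, DHX58 (LGP2, a regulator of both sensors) by 0.43 ± 0.13, DDX60 by 0.25 ± 0.07, DDX58 by 0.18 ± 0.03 and EIF2AK2 by 0.07 ± 0.03. The EIF2AK2 call (adjusted p = 0.047) was lost under 5 alternatives. IFITM1 was 67.3, 67.3, 66.03 and 72.4 CPM in Control and 29.8, 30.0, 31.6 and 30.3 CPM in Dox libraries (-1.16 ± 0.04, adjusted p = 1.1e-30), and IFITM2 and IFITM3 fell by 0.38 ± 0.03 and 0.37 ± 0.02. XAF1 was 1.69 to 2.48 CPM in Control and 0.946 to 1.75 CPM in Dox libraries, which overlapped (-0.48 ± 0.17, adjusted p = 0.011, lost with DESeq2).

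The other members that fell were ISG15 by 0.36 ± 0.06, SAMD9 by 0.32 ± 0.06, PARP9 by 0.25 ± 0.05, UBE2L6 by 0.21 ± 0.08, IFI35 by 0.21 ± 0.06, PARP12 by 0.18 ± 0.05, PARP14 by 0.16 ± 0.03, IRF9 by 0.15 ± 0.05 and DTX3L by 0.12 ± 0.04. UBE2L6 is the E2 enzyme of ISG15 conjugation, and PARP9 and DTX3L form a ubiquitin ligase complex. The 5 members that rose began with ISG20, which was 3.27, 3.43, 2.69 and 2.84 CPM in Control and 3.95, 4.03, 4.85 and 4.82 CPM in Dox libraries (0.54 ± 0.11, adjusted p = 6.1e-05). IRF1 was 11.03, 11.9, 12.01 and 12.7 CPM in Control and 15.7, 17.8, 14.5 and 16.1 CPM in Dox libraries (0.44 ± 0.06, adjusted p = 1.1e-07). Neither overlapped. MX2 rose by 0.19 ± 0.03, TRIM21 by 0.19 ± 0.05 and PLSCR1 by 0.15 ± 0.04. In 23 of the 30 called members the Control and Dox libraries did not overlap (5 of 5 that rose and 18 of 25 that fell), beside 80.2% of all genes called higher and 83.9% of those called lower (18.9% and 21% of genes tested), the others being EIF2AK2, DTX3L, IFI35, UBE2L6, DDX60, PARP9 and XAF1. The 13 members not called ranged from BST2 (-0.55 ± 0.31) to HERC6 (0.28), among them IFI44, SAMD9L, CMPK2, IFI6, MX1, HERC5, SP110 and USP18. When all 24 libraries were fitted together, 17 members were called (3 higher and 14 lower) in place of 30, and 25 (5 higher and 20 lower) when that fit left out Tet-One Dox replicate 1.

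Of the 4 transcription factors among the members, 2 rose in Tet-MIST1, and 1 rose and 1 fell in Tet-PTF1a. In Tet-PTF1a, STAT2 changed by 0.03 ± 0.05 and IRF7 by 0.11 ± 0.06 (neither called) and IRF9 fell. In Tet-MIST1, IRF9 and IRF7 rose, while STAT2 (0.11 ± 0.07) and IRF1 (0.10 ± 0.05) did not pass. None of the 10 interferon ligand genes looked up, among them IFNB1, IFNG and IFNL1, was listed in any table. A gene that is not listed may still have had reads. All 6 receptor genes were listed. None of them changed in Tet-MIST1, and in Tet-PTF1a IFNAR1 rose by 0.14 and IFNGR2, the second chain of the interferon gamma receptor, fell by 0.42. The kinase gene JAK1 fell by 0.24 in Tet-PTF1a, JAK2 rose by 0.38, TYK2 changed by -0.03 (not called) and STAT3, the main mediator of interleukin-6 signals, fell by 0.57.

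Of 97 other pathway genes, 75 were tested in Tet-MIST1, where 7 rose and 4 fell, beside 11.9% and 8.77% of all genes. In Tet-PTF1a 73 were tested, of which 17 rose and 25 fell, beside 23.8% and 24.4% of all genes. In Tet-One 0 of 65 passed. Among the largest called changes in Tet-MIST1 were CD274 (PD-L1, 1.27, not listed in Tet-PTF1a), IFI30 (0.51), BATF2 (0.41) and PARP10 (0.38). Those in Tet-PTF1a were BATF2, an AP-1 family factor (2.46), CCL5, a chemokine (-1.24), SOCS1, a feedback inhibitor of JAK kinases (1.18), TMEM173 (STING, -1.10), APOL6 (-1.07) and GBP2 (0.81). Of the adaptors and kinases of nucleic acid sensing, 6 of 9 fell in Tet-PTF1a and 1 of 9 (TRAF3) in Tet-MIST1. Among the negative regulators of signalling, 4 of 10 rose and 2 fell in Tet-PTF1a.

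Whether the response to Dox differed between lines was tested as an interaction over the 16 libraries of each pair of lines. Between Tet-PTF1a and Tet-MIST1, 24 of 43 members responded lower in Tet-PTF1a and 2 higher (median difference of log2 changes -0.35), beside 18.6% and 17.8% of all genes. The largest differences were IFITM1 (-1.81 ± 0.15), OASL (-1.66 ± 0.23), IFIT2 (-1.65 ± 0.13), IFIT1 (-1.36 ± 0.10), IFIT3 (-1.33 ± 0.17), BST2 (-1.11 ± 0.39), OAS1 (-0.96 ± 0.26) and OAS2 (-0.92 ± 0.22), and on the other side IRF1 (0.35 ± 0.08) and MX2 (0.31 ± 0.10). BST2 rested on 2 to 29 counts per Tet-PTF1a library. All 4 IFIT genes and 4 of 5 membrane proteins were among the 24. Counted from the separate tests in the 2 lines, which share no library, 8 members rose in Tet-MIST1 and fell in Tet-PTF1a: IFIT1, IFITM1, IFITM2, IFITM3, ISG15, IRF9, IFIH1 and PARP12. These are 8 of the 15 that rose in Tet-MIST1 (53.3%) and 8 of the 25 that fell in Tet-PTF1a (32%). Over all genes, 394 of 13283 (2.97%) did so, which are 24.7% of those that rose in Tet-MIST1 and 11.8% of those that fell in Tet-PTF1a. ISG20 rose in both lines.

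Against the empty-plasmid line the differences were fewer. Between Tet-PTF1a and Tet-One, 8 members responded lower in Tet-PTF1a and 1 higher (7.34% and 5.52% of all genes), namely IFIT2 (-1.42 ± 0.13), OASL (-1.27 ± 0.20), IFITM1 (-1.17 ± 0.19), IFIT3 (-1.08 ± 0.17), OAS1 (-1.01 ± 0.33), IFIT1 (-0.87 ± 0.11), IFITM3 (-0.53 ± 0.15), IFITM2 (-0.46 ± 0.11) and, on the higher side, IRF1 (0.44 ± 0.10). The OAS1 call had an adjusted p of 0.048 and was lost in 13 of 16 fits that each left out 1 library, and the IFITM3 call in 6 of 16, both also with a replicate block. With library size scaling, 54.1% of all called genes were higher in place of 42.9%, and the members split 2 higher and 7 lower. With GC content and exon length trends removed the split was 3 higher and 11 lower. Without Tet-One Dox replicate 1, 12 members were lower and 5 higher (16.1% and 14.6% of all genes), and OAS1 was no longer called. The differences were then IFIT2 -1.40, OASL -1.29, IFITM1 -0.93, IFIT3 -1.11, OAS1 -0.84, IFIT1 -0.77, IFITM3 -0.36, IFITM2 -0.34 and IRF1 0.44.

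Between Tet-MIST1 and Tet-One, 0 of 43 members passed (1.48% of all genes higher and 0.187% lower), although 10 had an unadjusted p under 0.05 and the smallest adjusted p was 0.094, for IFIT1 (0.50 ± 0.14). DESeq2 called 3, and 71.3% of its calls over all genes were higher. The rise of the 15 members in Tet-MIST1 was therefore not shown to differ from the change in Tet-One. Without Tet-One Dox replicate 1, 11 members passed and all responded higher in Tet-MIST1, beside 8.50% of all genes higher and 5.40% lower. They were IFITM1 (0.89 ± 0.18), BST2 (0.86 ± 0.26), IFI6 (0.77 ± 0.12), HERC5 (0.77 ± 0.12), IFIT1 (0.61 ± 0.11), ISG20 (0.60 ± 0.13), IFITM2 (0.50 ± 0.08), IRF7 (0.46 ± 0.10), IFIT5 (0.33 ± 0.09), SP110 (0.32 ± 0.09) and IFITM3 (0.27 ± 0.08). That fit kept Tet-MIST1 Dox replicate 1, which also differed from its group. In each of these libraries IFITM3 gave the largest share of summed member CPM in its group. The share was 36.7% in Tet-MIST1 Dox replicate 1 and 25.9% in Tet-One Dox replicate 1. A fit without both libraries was not run. With GC content and exon length trends removed, 63.6% of all called genes were higher in place of 88.7% and 3 members passed. Both interactions with Tet-One use the same 8 Tet-One libraries, and the Control libraries of each line enter both its baseline and its Dox comparison.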

How the data were processed

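The deposited tables hold raw counts per gene for the 8 libraries of each line. In the submitters' processing notes the authors name TopHat, HTSeq, DESeq, edgeR and the build hg19, without roles; strandedness and annotation are not given in the sources used here. The deposited normalized signal columns (library-scaled values made by the authors) and the authors' own comparison columns (fold changes, p-values, FDR) were not used. Members and lists were chosen with earlier results of these data known.

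Genes over 0.5 CPM in at least 4 libraries of a comparison were tested with edgeR 4.0.16 (R 4.3.3, limma 3.58.1), TMM scaling, the quasi-likelihood F-test and Benjamini-Hochberg adjustment over all genes tested, at 0.05 and with a prior count of 2 for fold changes. Dox and Control libraries were compared line by line, responses between lines by interaction, and uninduced lines directly. Levels are CPM or RPKM, scaled by TMM over 24 libraries on 13506 shared genes; tests were checked on simulated counts. DESeq2 1.42.0, other scalings and filters, a replicate block, a fit of all libraries, GC and length trends (added after seeing the data) and leaving out each library were alternatives. Values per library are given for called members with the largest changes, up to 8 in each direction of a comparison. Signalling genes are named whatever they did, and other pathway genes by their 6 largest called changes. Some genes these rules name are not reported here. The methods state 4 biological replicates, but the labels do not say that they were separate cultures, so p-values measure the spread between these libraries, which may be technical. Total counts per library ran from 17210989 to 43018494.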

Additional observations from a re-analysis of the deposited data

Results flagged for a closer look

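Single libraries stood far from the other 3 of their group for a member gene or for the summed members in 15 of 204 sets of 4 libraries tested, where chance alone marks about 1 in 20 (10.2 sets). Tet-One Dox replicate 1 gave 9 of the 15. In that library HERC5 was 5.08 CPM (3.17 to 3.35 in the others), IFI6 10.8 (4.64 to 5.13), IFIT1 15.1 (11.4 to 11.9), IFITM1 13.4 (7.59 to 7.99), ISG15 34.8 (15.1 to 17.8) and PLSCR1 24.4 CPM (17.8 to 18.8), all high. The same library was low for MX2 at 42.3 CPM (58.6 to 61.7), OAS3 at 10.6 (22.6 to 24.7) and STAT2 at 27.7 CPM (37.0 to 37.9). Elsewhere, HERC5 was low in Tet-MIST1 Control replicate 1 (13.8 CPM, others 15.5 to 15.8), IRF7 low in Control replicate 2 (11.4, others 12.5 to 12.7), and MX1 high in Tet-MIST1 Dox replicate 2 (5.42, others 3.28 to 3.59), in which the summed CPM of the members was 1504 (others 1376 to 1394). In Tet-PTF1a Control, IFI6 was 13.8 CPM in replicate 1 (others 11.4 to 11.8) and IFITM2 62.1 CPM in replicate 4 (others up to 60.3).

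The response to Dox differed between lines by the interaction test for the following members, as differences of log2 changes. For Tet-PTF1a minus Tet-One these were IFIT2 -1.42, OASL -1.27, IFITM1 -1.17, IFIT3 -1.08, OAS1 -1.01, IFIT1 -0.87, IFITM3 -0.53, IFITM2 -0.46 and IRF1 0.44. For Tet-PTF1a minus Tet-MIST1 the largest were IFITM1 -1.81, OASL -1.66, IFIT2 -1.65, IFIT1 -1.36, IFIT3 -1.33, BST2 -1.11, OAS1 -0.96, OAS2 -0.92, IRF1 0.35 and MX2 0.31.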

How the results depend on the processing

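Counts of members called stayed within 1.5 times the reported value in each comparison under each alternative run, with these exceptions. For Dox in Tet-PTF1a, fitting all 24 libraries together gave 17 in place of 30, and 25 without Tet-One Dox replicate 1 (added after seeing the data). For the response in Tet-MIST1 against Tet-One, where 0 passed, library size scaling, DESeq2 and removal of GC content and exon length trends each gave 3, and the fit of all libraries gave 5. For Tet-PTF1a against Tet-One, removal of those trends gave 14 in place of 9. Leaving out 1 library gave 10 to 19 members for Dox in Tet-MIST1, 0 in Tet-One, 27 to 30 in Tet-PTF1a, 0 to 11 for Tet-MIST1 against Tet-One, 7 to 17 for Tet-PTF1a against Tet-One and 22 to 29 for Tet-PTF1a against Tet-MIST1, the values 11 and 17 being those without Tet-One Dox replicate 1. It gave 39 to 41, 37 to 40 and 24 to 30 in the uninduced comparisons of Tet-MIST1 with Tet-One, Tet-PTF1a with Tet-One and Tet-PTF1a with Tet-MIST1. The cause of these shifts was not tested. Replicate numbers showed no clear pairing of the libraries (correlations of same-numbered deviations -0.302 to 0.244), which does not exclude a pairing. With a replicate block, 10 members were called for Dox in Tet-MIST1, 29 in Tet-PTF1a and 0 in Tet-One, and 0, 7 and 23 for the 3 differences of response in the order above. Calls held in every fit for 8 of 15 members in Tet-MIST1 and 16 of 30 in Tet-PTF1a. SAMD9L, IFI44, OAS1 and BST2 had few counts, which limits the precision of their changes.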
